A study of Mus musculus with 6 samples.

Results

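The UDP-glucuronosyltransferases (UGT), the cytosolic sulfotransferases (SULT) and the glutathione S-transferases (GST) attach glucuronic acid, sulfate or glutathione to drugs, steroids, bilirubin and reactive compounds. Their RNA was followed here in orthotopic HCA-1 tumors with and without GOx-DOX-LGP treatment. Members were taken by gene symbol, as every symbol that starts with Ugt1, Ugt2, Ugt3 or Sult, or with Gst, a class letter (a, m, p, t, k, o or z) and a digit, and that had 1 count or more in any library. This gave 54 of the 55536 genes in the count table, 18 UGT, 14 SULT and 22 GST genes. Sult3a2 matched by symbol but had 0 counts in every library, and 1 pseudogene symbol was left out.

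HCA-1 is a murine hepatocellular carcinoma (HCC) line, and its cells were injected under the liver capsule of male C3H mice (C3H/HeNCrNarl in the methods of the study) aged 6 to 8 weeks, in both groups. The 3 control tumors (numbered 5, 6 and 7) were untreated, and the 3 others (numbered 1, 2 and 5) came from mice given GOx-DOX-LGP intravenously, a nanogel that carries glucose oxidase (GOx) and the anthracycline doxorubicin (DOX). No group received an empty nanogel or either agent alone in these libraries. The labels give dosing on days 18, 19 and 20 but place the profiling on day 17 after 3 h of circulation, while the methods of the study place the harvest on the day after the last dose. The labels number the tumors without saying that each came from its own mouse, and the p-values therefore measure the spread between these libraries. Raw counts summed to between 15529940 and 18401178 per library.

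Conjugation makes a compound more soluble in water and readies it for export into bile or urine. In the liver most of this work is done by hepatocytes, where transcription factors such as HNF4 and C/EBP keep many UGT, SULT and GST genes active, while CAR, PXR, AhR and NRF2 raise them when drugs or electrophiles arrive. Several GST classes, among them Gstp and Gsto, are also made by many other cells.

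Control 5 stood apart from the other control tumors, and every result below has to be read with that in view. How much host liver each piece held, and whether any library carries the wrong label, was not tested, and either would change what a treated-over-control value compares. Across all genes kept, Pearson's r of its log2 levels was 0.730 with control 6 and 0.659 with control 7, against 0.966 to 0.975 with the GOx-DOX-LGP tumors. Genes are not independent replicates, and these values describe the libraries only. The summed level of 15 hepatocyte markers was 773 CPM (read counts scaled to a common library size by the TMM method) in control 5, 140677 CPM in control 6 and 221094 CPM in control 7, and 4072, 1662 and 2333 CPM in GOx-DOX-LGP 1, 2 and 5. Albumin (Alb) alone was at 353, 73804 and 128244 CPM in the controls and at 1893, 733 and 1061 CPM in the treated tumors. By edgeR, all 15 markers were lower at an unadjusted p under 0.05, against 14.6% of all genes kept, and 0 at an adjusted p, against 0%. Their median log2 fold change was −5.35, with −5.35 for Ttr and −5.12 for Apoa1. In bulk RNA, fewer cells of a type and less RNA per cell cannot be told apart. The 5 markers of fetal or tumor liver summed to between 17.6 and 28.7 CPM, and of these Afp lay between 2.25 and 13.2 CPM and Gpc3 between 0.784 and 2.29 CPM over the 6 libraries. All 5 had a negative fitted change (median −0.49), with 2 lower at an unadjusted p under 0.05 and 0 at an adjusted p by edgeR.

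The Ugt1a genes show how these enzymes are laid out in the genome. On GRCm38 (GENCODE M21) the 8 Ugt1a members lie on the plus strand of chromosome 1, from 88055388 for Ugt1a10 to 88220002 for Ugt1a7c. Each has a first exon of its own under a promoter of its own, and all join the same last exons. As a result, 50.3% to 60.6% of the exon bases of a Ugt1a member also lie in exons of same-strand neighbors, and counts of one member can hold reads of another. The stretches below end at the base before the RefSeq start (GRCm38.p6, promoter table of RefSeq) and run 5′ to 3′ on the gene's strand. The first 3 are promoters of this locus, shown because Ugt1a7c was the only one of the 4 Ugt1a genes kept whose fitted change was not negative. Ugt2b5, Ugt2b36 and Gsta3 are shown as members with large fitted changes and a match. Capitals mark matches on either strand to the core of the antioxidant response element (ARE), TGACNNNGC, the site read by NRF2, to the core of the AhR site, TNGCGTG, or to the C/EBP motif TTGCNNAA.
Ugt1a1 (chr1:88211809-88211958, plus strand): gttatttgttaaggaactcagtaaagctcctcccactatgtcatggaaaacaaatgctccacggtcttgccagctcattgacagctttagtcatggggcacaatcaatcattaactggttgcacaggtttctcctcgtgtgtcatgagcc
Ugt1a5 (chr1:88165862-88166011, plus strand): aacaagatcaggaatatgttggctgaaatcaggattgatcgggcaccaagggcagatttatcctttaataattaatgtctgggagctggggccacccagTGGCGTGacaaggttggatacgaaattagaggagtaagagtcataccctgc
Ugt1a7c (chr1:88094851-88095000, plus strand): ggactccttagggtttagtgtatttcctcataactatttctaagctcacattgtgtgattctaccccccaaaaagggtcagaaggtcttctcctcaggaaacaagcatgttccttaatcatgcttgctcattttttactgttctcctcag
Ugt2b5 (chr5:87140341-87140490, minus strand): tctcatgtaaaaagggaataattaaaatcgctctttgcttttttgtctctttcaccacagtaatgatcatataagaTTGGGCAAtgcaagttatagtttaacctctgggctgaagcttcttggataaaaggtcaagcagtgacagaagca
Ugt2b36 (chr5:87092556-87092705, minus strand): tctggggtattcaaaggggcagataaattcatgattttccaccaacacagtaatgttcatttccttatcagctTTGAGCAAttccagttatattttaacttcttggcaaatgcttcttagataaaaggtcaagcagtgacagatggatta
Gsta3 (chr1:21240435-21240584, plus strand): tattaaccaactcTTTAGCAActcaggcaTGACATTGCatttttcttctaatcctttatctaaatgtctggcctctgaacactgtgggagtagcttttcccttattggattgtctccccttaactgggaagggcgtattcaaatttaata
The AhR core lay 51 bases before the start in Ugt1a5, and none of the 3 motifs was in the windows of Ugt1a1 and Ugt1a7c. The C/EBP motif lay 74 bases before the start in Ugt2b5 and 77 in its neighbor Ugt2b36, and Gsta3 held it at 137 and the ARE core at 121 bases. Over 300 bases around the start (250 before and 50 after), RefSeq gives 58 promoters for 47 of the 54 genes. TGACNNNGC was found in 0 of 16 UGT, 0 of 14 SULT and 3 of 28 GST promoters, against 12.4% of all 32851 mouse promoters of that length. TNGCGTG was found in 1 promoter of each family, against 5.07% of all. TTGCNNAA was in 4 UGT, 2 SULT and 4 GST promoters (10.8% of all), the HNF4 motif CAAAGTCCA in 1, of Sult1b1 (0.475%), and TATAAA in 1, 4 and 4 (13.6%). No 2 of these motifs overlapped within the 6 stretches shown. A match is a description of the letters and not evidence that a factor binds.

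Most of the conjugation genes were far higher in controls 6 and 7 than in any other library, and control 5 sat with the treated tumors or below them. A filter on low counts (edgeR's default, which needs counts in at least 3 libraries) kept 38 of the 54 genes, 11 UGT, 6 SULT and 21 GST. Controls 6 and 7 were both above all 3 GOx-DOX-LGP tumors for 33 of the 38, 10 UGT, 4 SULT and 19 GST genes. Control 5 was below all 3 GOx-DOX-LGP tumors for 26, within their range for 12 and above it for 0. As a result, 0 of the 38 genes had groups that did not overlap with GOx-DOX-LGP lower, against 8.31% of the 15374 genes kept, and 1 (Sult2b1) with GOx-DOX-LGP higher, against 8.87%. With control 5 left out, 41 of 46 members did not overlap with GOx-DOX-LGP lower and 3 with it higher, against 35.3% and 36.8% of 16249 genes. The members added to the 38 in that setting passed the filter only through controls 6 and 7, so their lower place followed from the filter.

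With edgeR's quasi-likelihood test over all 6 libraries and Benjamini-Hochberg adjustment, 0 members were lower and 0 were higher at an adjusted p under 0.05, and the share over all genes kept was also 0% in each direction (0 lower, 0 higher). Adjusted p-values of the members lay between 0.247 and 0.792. The value 0.247 was also the smallest adjusted p of any gene kept, and many members share it. At an unadjusted p under 0.05, 29 members were lower and 1 was higher, against 14.6% and 2.87% of all genes kept. DESeq2 called 37 of the 46 members with an adjusted p lower and 0 higher, against 9.87% and 0.686% of 16471 genes, 8 of the 37 being genes that the edgeR filter had removed. Without control 5 the edgeR test called 40 of 46 members lower and 1 (Gsto2) higher, against 25.5% and 22.2% of 16249 genes. Members added to the 38 in that setting passed the filter only through the remaining control tumors. Their calls as lower therefore followed from the filter. Limma voom with sample quality weights called 31 of the 38 lower and 3 higher, in a fit that called 30.9% of all genes kept lower and 29.2% higher. The fitted log2 fold change (the base 2 logarithm of the GOx-DOX-LGP level over the control level) was negative for 33 of the 38 genes, with a median of −6.13 for UGT, −5.81 for SULT and −3.52 for GST, where the median of all genes kept was 0.02.

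**Figure D1:**
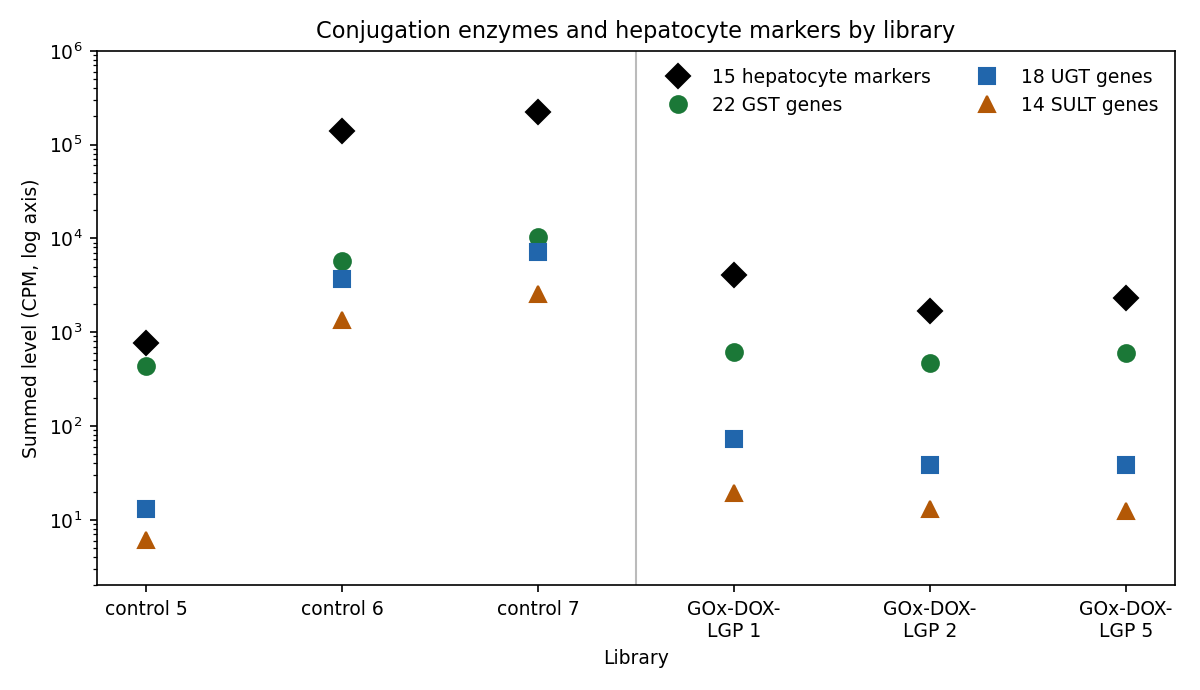
Summed level in CPM (log axis) of the 18 UGT, 14 SULT and 22 GST genes and of the 15 hepatocyte markers in each of the 6 libraries, 1 point per library and list. Controls 6 and 7 stand above the other 4 libraries in all 4 lists, and the gap is smallest for GST.

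The summed UGT level was 283 and 549 times that of control 5 in controls 6 and 7, against 219 and 423 times for SULT and 13.0 and 23.8 times for GST. Together the 18 UGT genes took 0.00160% of all counts in control 5 (95% Wilson interval 0.00143% to 0.00180%, counting error only), 0.277% in control 6 and 0.404% in control 7. They took 0.00902%, 0.00468% and 0.00473% in GOx-DOX-LGP 1, 2 and 5. Control 5 thus held the smallest UGT share of the 6 libraries.

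Ugt2b1, a liver isoform of the Ugt2b cluster on chromosome 5, was at 1.01, 765 and 1631 CPM in controls 5, 6 and 7 and at 10.0, 1.71 and 4.32 CPM in GOx-DOX-LGP 1, 2 and 5. The fitted log2 change was −7.22 (SE 2.30, adjusted p 0.247 by edgeR, 0.000522 by DESeq2). The groups overlapped through control 5, and without control 5 the log2 fold change was −7.77 (SE 0.79, adjusted p 0.000287 from edgeR). With any other library left out, the adjusted p of Ugt2b1 by edgeR lay between 0.462 and 0.605. Control 5 is the library that made the groups overlap, so here and below a smaller p without it is no separate support. Ugt2b5, which per kilobase of exon had the highest mean level of the UGT genes, was at 1.45, 726 and 1422 CPM in the controls and at 14.4, 3.63 and 7.49 CPM in the treated tumors (log2 fold change −6.39, SE 2.09, adjusted p 0.247). In its transcripts 41.7% of the stretches of 50 bases also occur in other genes, mostly Ugt2b38, so part of its counts is uncertain. The other Ugt2b genes kept, Ugt2b34, Ugt2b35 and Ugt2b36, had log2 fold changes between −6.17 and −5.94, with control 5 below the treated tumors in each.

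Ugt2a3, next to the Ugt2b genes, was at 0.351, 228 and 442 CPM in the controls and at 2.92, 0.588 and 1.87 CPM in the treated tumors, a log2 fold change of −6.96 (SE 2.17, adjusted p 0.247). Ugt3a2 on chromosome 15, which uses other sugars than glucuronic acid, was at 0.834, 241 and 426 CPM and at 4.65, 2.79 and 3.23 CPM (log2 fold change −5.97, SE 1.85, adjusted p 0.247). In both genes control 5 was the lowest library.

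Ugt1a1, the bilirubin-conjugating enzyme, was counted 1, 797 and 1153 times in the controls and 15, 14 and 8 times in the treated tumors. Its log2 fold change was −6.68 (SE 2.08, adjusted p 0.247 by edgeR, 0.000936 by DESeq2). Of its exon bases 41.5% also lie under a gene on the other strand (Gm20528), and the use of strand in counting is not given in the sources used here. Ugt1a6a and Ugt1a6b, which act on small flat phenols, had log2 fold changes of −3.77 and −4.72, both with an adjusted p of 0.247. For Ugt1a6a, control 5 (1.05 CPM) lay within the range of the treated tumors (0.989 to 2.20 CPM).

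Ugt1a7c departed from the other Ugt1a genes. Its level was 2.19, 4.49 and 3.44 CPM in the controls and 3.76, 12.1 and 2.08 CPM in GOx-DOX-LGP 1, 2 and 5. The log2 fold change was 0.83 (SE 0.70, adjusted p 0.526 by edgeR, 0.514 by DESeq2). Only GOx-DOX-LGP 2 was above the controls, and without it the log2 fold change was −0.18. In GOx-DOX-LGP 2, Ugt1a7c had the second highest level per kilobase of the UGT genes (2.86 CPM per kb, after 2.93 for Ugt2b36). Its annotation runs to 88220002, past the ends of the other Ugt1a members (88218997 to 88219004). Reads of another Ugt1a transcript beyond those ends could be counted for Ugt1a7c, which was not tested.

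The 7 UGT genes that the filter removed had few or no counts outside controls 6 and 7. Ugt1a9 was counted 2, 125 and 234 times in the controls and 1, 0 and 1 times in the treated tumors. Ugt1a5 was counted 0, 334 and 420 times and 5, 6 and 2 times, and Ugt3a1 1, 289 and 311 times and 5, 4 and 4 times. Ugt2b38 reached 165 counts in control 7 with at most 4 in a treated tumor, Ugt2b37 reached 36 with at most 1, Ugt1a10 reached 9 and Ugt1a2 reached 4.

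The SULT family was carried by few genes. Its 14 members took 0.000755% of all counts in control 5, 0.101% in control 6 and 0.146% in control 7, and 0.00237%, 0.00158% and 0.00153% in GOx-DOX-LGP 1, 2 and 5. Sult2a8, a hepatocyte sulfotransferase of the hydroxysteroid and bile acid class, was at 1.18, 879 and 1826 CPM in the controls and at 8.30, 1.81 and 4.73 CPM in the treated tumors. The fitted log2 change of −7.51 (SE 2.29) was the most negative of all 38 genes (adjusted p 0.247 by edgeR, 0.000424 by DESeq2). Control 5 was again the lowest library. Without it the log2 fold change was −8.06 (SE 0.72, adjusted p 0.000152 from edgeR), and with any other library left out the adjusted p by edgeR lay between 0.462 and 0.605.

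Sult1a1, the main phenol sulfotransferase, was at 2.98, 310 and 491 CPM in the controls and at 5.14, 8.43 and 4.01 CPM in the treated tumors (log2 fold change −5.51, SE 1.62, adjusted p 0.247). Per kilobase it was the highest SULT gene in control 5 (1.98 CPM per kb) and in the treated tumors (2.66 to 5.59 CPM per kb), while Sult2a8 was the highest in controls 6 and 7 (268 and 556 CPM per kb). Sult1d1, which acts on catecholamines, was at 0.483, 97.9 and 156 CPM and at 2.37, 0.392 and 0.832 CPM (log2 fold change −6.14, SE 1.89, adjusted p 0.247). Sult1b1, which acts on thyroid hormone and phenols, was at 0.307, 27.9 and 73.5 CPM and at 0.692, 0.343 and 0.416 CPM (log2 fold change −6.11, SE 1.74, adjusted p 0.247). Control 5 fell inside the range of the treated tumors for Sult1d1 and below it for Sult1b1.

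Sult2b1, the cholesterol sulfotransferase of skin and other epithelia, was the 1 member whose groups did not overlap. It was counted 8, 4 and 1 times in the controls and 23, 11 and 16 times in the treated tumors, or 0.351, 0.339 and 0.108 CPM against 1.14, 0.539 and 0.832 CPM. Its log2 fold change was 1.55 (SE 0.54, adjusted p 0.249 by edgeR, 0.179 by DESeq2). Limma voom, which called 29.2% of all genes higher, gave an adjusted p of 0.0188, and edgeR without control 5 one of 0.0696. The counts are low in every library, and 8.13% of its exon bases overlap genes of the other strand.

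Sult6b1 was counted 17, 11 and 4 times in the controls and 24, 25 and 17 times in the treated tumors, a log2 fold change of 0.62 (SE 0.41, adjusted p 0.433). The 8 SULT genes removed by the filter fell in 2 sets. Sult5a1 (0, 97 and 164 counts in the controls), Sult1c2 (0, 94 and 123) and Sult2a7 (0, 11 and 21) had at most 3 counts in any treated tumor. Sult1e1, Sult2a1, Sult3a1, Sult4a1 and Sult6b2 had at most 5 counts in any library.

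**Figure D2:**
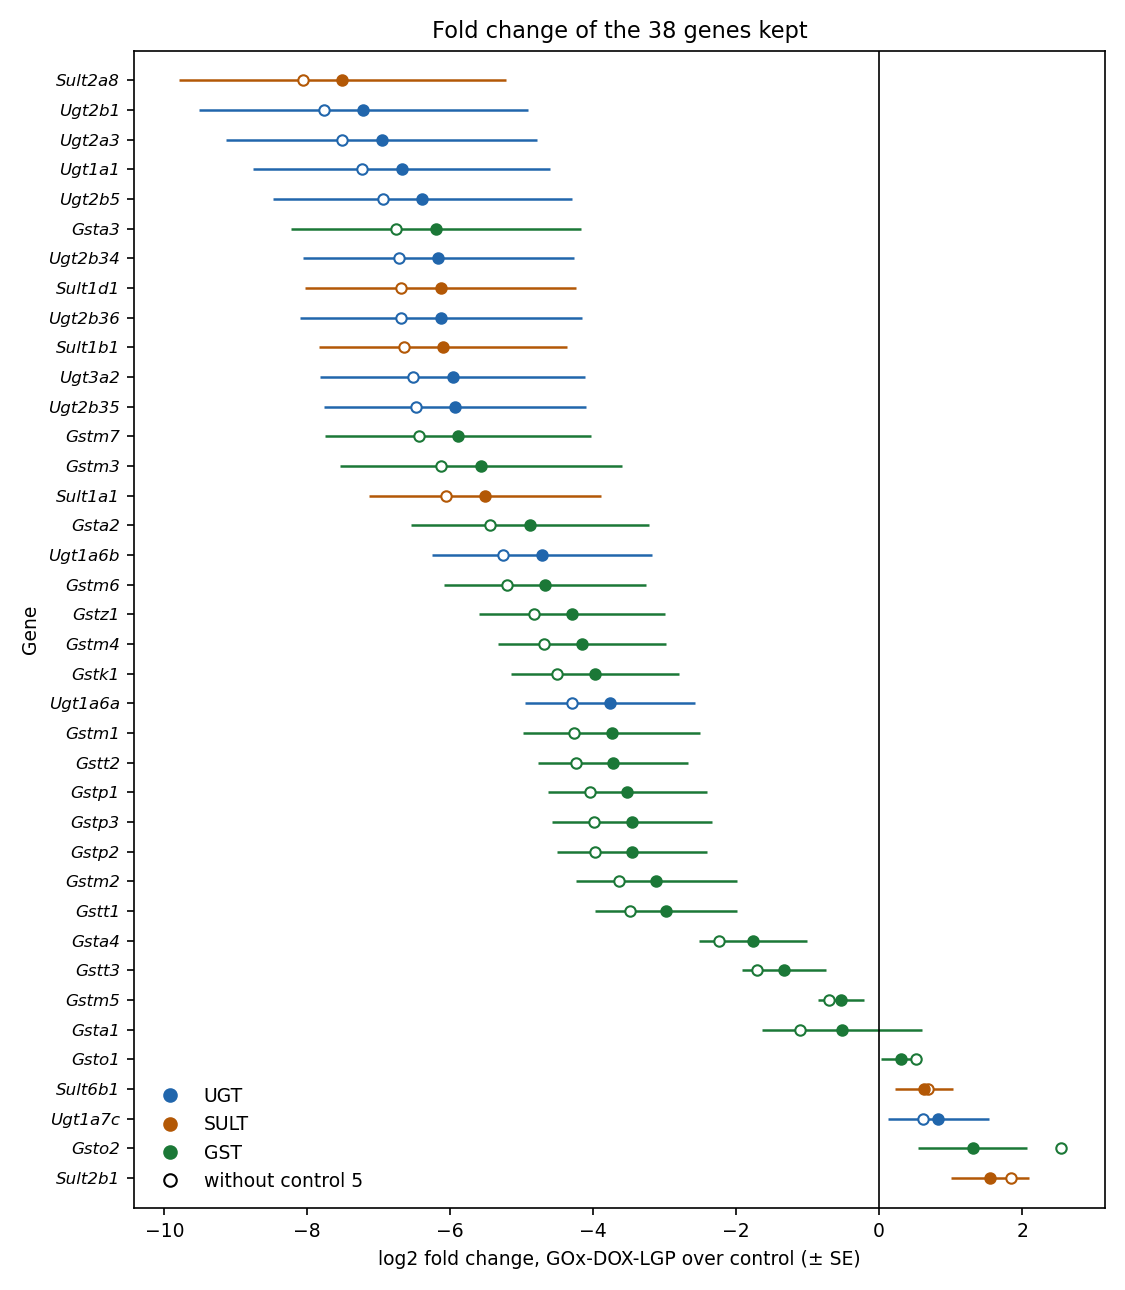
Log2 fold change (GOx-DOX-LGP over control) with its standard error for each of the 38 genes kept, ordered by size (filled points, 6 libraries), beside the value without control 5 (open points, no error shown). The bars are long because control 5 differs from controls 6 and 7, and 5 genes lie to the right of 0 (Gsto1, Sult6b1, Ugt1a7c, Gsto2 and Sult2b1).

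The 22 GST genes took 0.0543% of all counts in control 5, 0.431% in control 6 and 0.593% in control 7, and 0.0767%, 0.0575% and 0.0745% in GOx-DOX-LGP 1, 2 and 5. The intervals for counting error of control 5 (0.0533% to 0.0554%) and GOx-DOX-LGP 2 (0.0563% to 0.0586%) did not overlap, which says nothing of the spread between tumors. In the treated tumors the summed UGT level was 2.95 to 5.63 times that of control 5, the SULT level 2.03 to 3.14 times and the GST level 1.08 to 1.41 times. For the hepatocyte markers, measured the same way, it was 2.15 to 5.27 times.

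The 4 alpha genes all had a negative fitted log2 fold change, between −6.20 and −0.52. Gsta3, an aflatoxin-conjugating hepatocyte enzyme, was at 3.47, 1224 and 2317 CPM in the controls and at 29.9, 7.30 and 10.98 CPM in the treated tumors (log2 fold change −6.20, SE 2.03, adjusted p 0.247 by edgeR, 0.00100 by DESeq2). Gsta4, which clears the lipid peroxidation product 4-hydroxynonenal, was at 10.9, 67.1 and 110 CPM in the controls and at 18.1, 21.2 and 15.8 CPM in the treated tumors, a log2 fold change of −1.77 (SE 0.76, adjusted p 0.296). Gsta1, known as an NRF2 target in mouse liver, was counted 1, 37 and 35 times in the controls and 28, 39 and 27 times in the treated tumors. Control 5 alone was low for Gsta1, and the log2 fold change was −0.52 (SE 1.12, adjusted p 0.792), or −1.10 without control 5 (SE 0.37, adjusted p 0.0430 by edgeR). With any other library left out, the adjusted p of Gsta1 by edgeR lay between 0.815 and 0.995. The sign for Gsta1 turned when libraries were scaled by their totals (0.34), without control 7 (0.03) and with the hepatocyte markers as a covariate (3.19), and 90.5% of its stretches of 50 bases also occur in other genes, mostly Gsta2, so its counts are uncertain.

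In the mu class, Gstm1 had the highest mean level per kilobase of all members. It was at 59.8, 1505 and 2836 CPM in the controls and at 118, 108 and 103 CPM in the treated tumors. The fitted log2 change was −3.74 (SE 1.23, adjusted p 0.247 by edgeR, 0.00793 by DESeq2). The 3 treated tumors lay close together, all above control 5. Gstm7 was at 0.263, 66.5 and 109 CPM in the controls and at 1.83, 0.441 and 0.676 CPM in the treated tumors (log2 fold change −5.89, SE 1.86, adjusted p 0.247). Gstm3 was at 0.175, 135 and 262 CPM and at 4.004, 1.67 and 2.65 CPM (log2 fold change −5.57, SE 1.97, adjusted p 0.249), and it shares 28.8% of its stretches of 50 bases, mostly with Gstm1. At the other end of the class, Gstm5, the mu form of brain and testis, was counted 180, 119 and 145 times in the controls and 157, 141 and 164 times in the treated tumors. Its log2 fold change was −0.53 (SE 0.32, adjusted p 0.408), and it too changed sign when libraries were scaled by their totals.

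Gstp1, the pi form found in many cell types and in tumors, was at 79.6, 1060 and 2283 CPM in the controls and at 111, 76.7 and 110 CPM in the treated tumors. Control 5 lay within the range of the treated tumors. The log2 fold change was −3.52 (SE 1.11, adjusted p 0.247 by edgeR, 0.00718 by DESeq2). Gstp2 and Gstp3 had almost the same fitted change (−3.46 each). Gstp1 and Gstp2 share sequence, with 33.7% and 54.3% of their stretches of 50 bases found in other genes.

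Gstz1, which also isomerizes maleylacetoacetate in tyrosine breakdown, was at 24.0, 827 and 1377 CPM in the controls and at 43.0, 31.1 and 39.2 CPM in the treated tumors (log2 fold change −4.30, SE 1.30, adjusted p 0.247). Gstk1, the mitochondrial and peroxisomal form, was at 3.47, 77.2 and 123 CPM and at 4.65, 2.99 and 5.26 CPM (log2 fold change −3.98, SE 1.17, adjusted p 0.247). Gstt1, the theta form that acts on small halogenated compounds, was at 11.7, 161 and 232 CPM and at 14.2, 13.6 and 23.5 CPM (log2 fold change −2.98, SE 0.99, adjusted p 0.247). In these classes, too, only controls 6 and 7 were high. Gstt4, the 1 GST gene removed by the filter, had at most 3 counts in any library.

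In the omega class, controls 6 and 7 were not the highest libraries. Gsto1, a thioltransferase that also reduces dehydroascorbate and arsenic species, was at 207, 159 and 141 CPM in controls 5, 6 and 7 and at 225, 165 and 239 CPM in GOx-DOX-LGP 1, 2 and 5. The fitted log2 change was 0.31 (SE 0.28, adjusted p 0.543 by edgeR, 0.544 by DESeq2). Gsto2, its neighbor on chromosome 19, was counted 136, 21 and 6 times in the controls and 146, 106 and 171 times in the treated tumors, or 5.97, 1.78 and 0.646 CPM against 7.22, 5.19 and 8.90 CPM. Its log2 fold change was 1.31 (SE 0.76, adjusted p 0.390 by edgeR, 0.324 by DESeq2). Control 5 lay within the range of the treated tumors for both genes. Without control 5 the log2 fold change of Gsto2 was 2.54 (SE 0.51, adjusted p 0.00606 from edgeR) and that of Gsto1 was 0.51 (SE 0.23, adjusted p 0.105). With any other library left out, the adjusted p of Gsto2 by edgeR lay between 0.508 and 0.733. Limma voom, with its 29.2% of all genes called higher, gave adjusted p-values of 0.00224 for Gsto2 and 0.0178 for Gsto1.

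**Figure D3:**
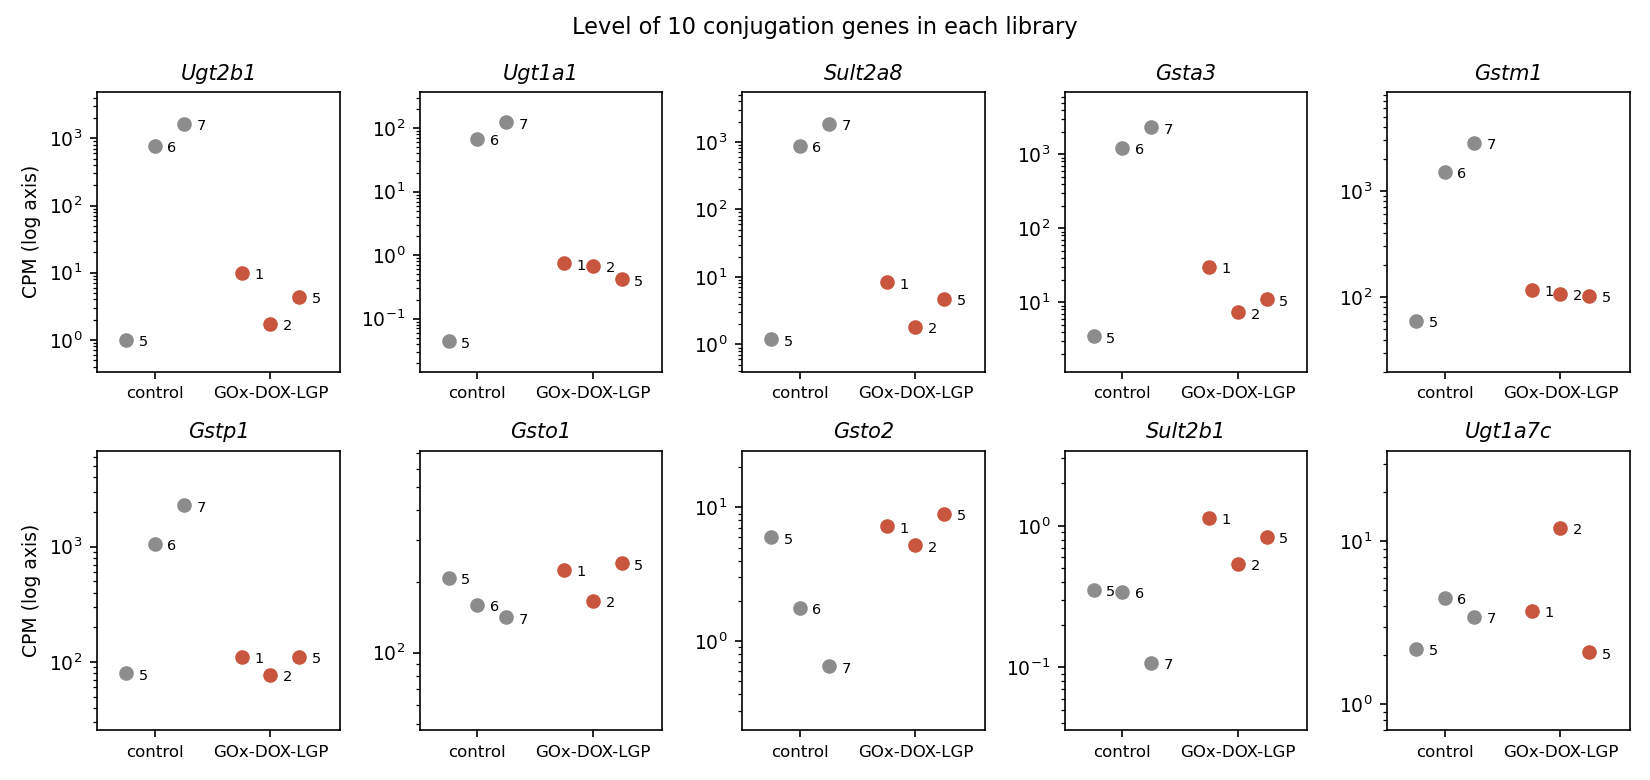
CPM (log axis, a scale of its own for each gene) of 10 conjugation genes in the 3 control and 3 GOx-DOX-LGP tumors, 1 point per library with its number beside it. In the upper row controls 6 and 7 are high and control 5 is the lowest library, Gstp1 is high in controls 6 and 7 with control 5 among the treated tumors, and Gsto1, Gsto2, Sult2b1 and Ugt1a7c do not have controls 6 and 7 on top.

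Which GST transcript led therefore differed between libraries. Per kilobase of exon, Gsto1 was the highest GST gene in control 5 (102 CPM per kb) and in all 3 treated tumors (111, 81.7 and 118 CPM per kb). In control 6 and control 7 the highest was Gstm1, at 1022 and 1925 CPM per kb, followed by Gstp1 at 685 and 1475 CPM per kb. As a share of GST counts, a measure that needs no scaling between libraries, the omega class made up 48.5% in control 5 (95% Wilson interval 47.5% to 49.5%), 2.83% in control 6 and 1.36% in control 7. It made up 37.4%, 35.9% and 41.1% in GOx-DOX-LGP 1, 2 and 5. The alpha class was larger in controls 6 and 7 than in the other libraries, with 3.31%, 23.1% and 23.6% of GST counts in the controls and 8.07%, 6.54% and 4.81% in the treated tumors. The mu class (Gstm) also took a larger share in controls 6 and 7 than in the other libraries. The pi class stayed between 16.7% and 22.5% in all 6 libraries.

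**Figure D4:**
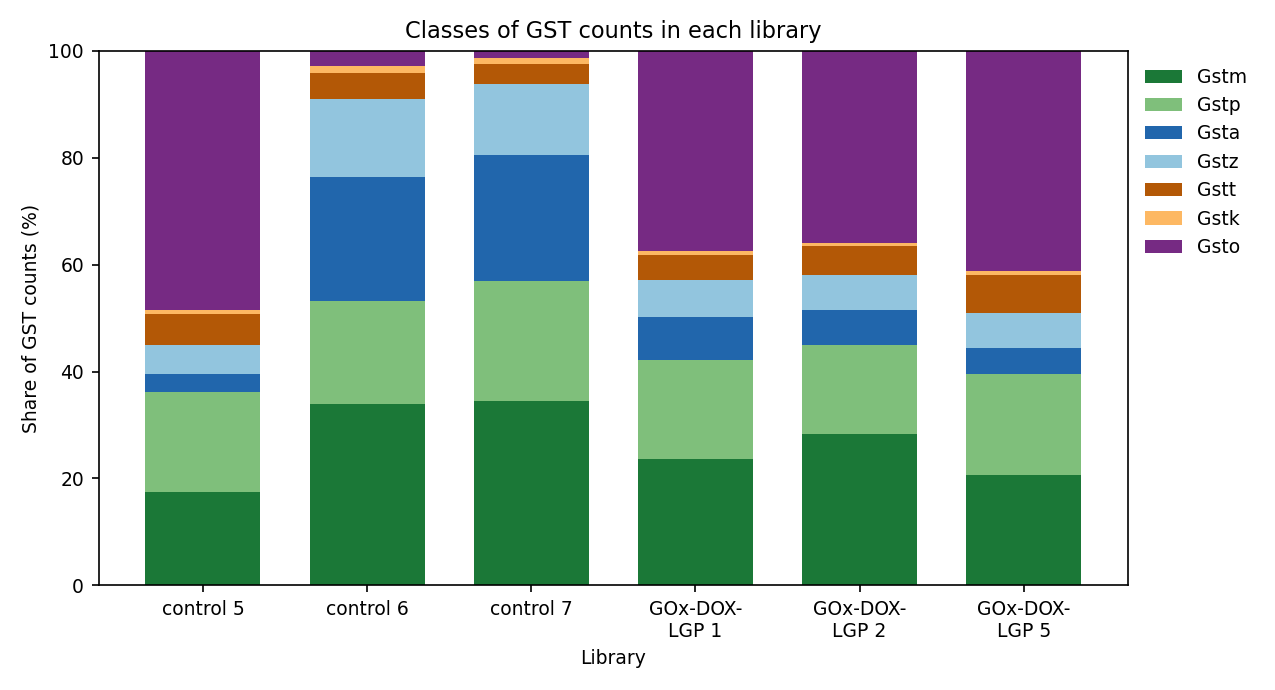
Share of GST counts (%) taken by each of the 7 GST classes in each library, as stacked bars that sum to 100%. The omega class (Gsto) takes 35.9% to 48.5% in control 5 and the treated tumors but 1.36% to 2.83% in controls 6 and 7, where the mu (Gstm), alpha (Gsta) and zeta (Gstz) classes are larger.

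The UGT and SULT levels stayed within a narrow ratio of the hepatocyte markers, and the GST levels did not. The summed UGT level was 1.67%, 2.61% and 3.22% of the summed hepatocyte markers in the controls and 1.79%, 2.33% and 1.64% in the treated tumors. For SULT these values were 0.789%, 0.948% and 1.17% in the controls and 0.470%, 0.784% and 0.531% in the treated tumors. For GST the ratio was 56.7% in control 5 but 4.05% in control 6 and 4.72% in control 7. In the treated tumors it was 15.2%, 28.6% and 25.8%. Without the omega genes the GST values were 29.2%, 3.94% and 4.66% in the controls and 9.53%, 18.3% and 15.2% in the treated tumors. When the mean log2 CPM of the hepatocyte markers entered the fit as a covariate, the median log2 fold change was 0.045 for UGT, −0.50 for SULT and −0.19 for GST, and 24 of the 38 genes were lower and 14 higher. The covariate comes from the same 6 libraries, and its markers had a median of −5.35 in the main fit and 0.011 in this one. This fit therefore cannot separate hepatocyte content from treatment. No member had an adjusted p under 0.05 in that fit, the smallest being 0.484, while 5 GST genes (Gstk1, Gstm4, Gstm6, Gstt2 and Gstz1) were lower and 2 (Gsta1 and Gstm3) higher at an unadjusted p under 0.05, against 4.75% and 2.40% of all genes kept.

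Markers of other cell types also differed between the libraries. The summed level of 7 cholangiocyte markers was 7033, 587 and 249 CPM in the controls and 7140, 4757 and 5819 CPM in the treated tumors, most of it Spp1, which tumors and macrophages also express. The 6 fibroblast markers summed to 5709, 1726 and 1406 CPM in the controls and to 4569, 6873 and 2186 CPM in the treated tumors, and 3 of them had a negative and 3 a positive fitted change. The 5 endothelial markers summed to 104, 310 and 350 CPM and to 92.04, 86.6 and 77.4 CPM, and the 7 leukocyte markers to 352, 299 and 196 CPM and to 306, 596 and 411 CPM. Of these markers, only Cftr, a duct marker, was at 0 in a library (control 7). The part of these cell types in the levels of the conjugation genes was not tested.

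The other genes of conjugation numbered 71, of which 64 were kept, with a median log2 fold change of −1.02. At an adjusted p under 0.05, edgeR called 0 of them lower and 0 higher, where the share over all genes kept was also 0%. DESeq2 called 30 of 67 lower and 0 higher, against 9.87% and 0.686% of 16471 genes. At an unadjusted p under 0.05 in edgeR, 30 of the 64 were lower and 2 higher, against 14.6% and 2.87% of all genes kept. Those 2 shares are the background for the unadjusted counts of each list below. Of 4 genes that make or move UDP-glucuronic acid (median −1.14), 2 were lower at an unadjusted p under 0.05. Ugdh, which makes UDP-glucuronic acid itself, was at 468, 341 and 432 CPM in the controls and at 494, 409 and 439 CPM in the treated tumors (log2 fold change 0.11, SE 0.28, adjusted p 0.825). Slc35d1, which carries it into the endoplasmic reticulum, was at 27.5, 184 and 325 CPM and at 24.5, 20.9 and 23.0 CPM, lower in every treated tumor than in every control (log2 fold change −2.97, SE 0.83, adjusted p 0.247). Of 6 genes of sulfate supply (median −1.16), 3 were lower at an unadjusted p under 0.05. Sqor, which oxidizes sulfide, had the largest change of them (log2 fold change −2.89, SE 0.93, adjusted p 0.247). Papss2, the liver synthase of the sulfate donor PAPS, did not overlap between the groups (44.6, 154 and 243 CPM against 41.4, 38.3 and 43.1 CPM, adjusted p 0.247). For Papss2 the gap was narrow, between 44.6 CPM in control 5 and 43.1 CPM in the highest treated tumor. Of the 64 pathway genes kept, 8 did not overlap with GOx-DOX-LGP lower and 3 with it higher, against 8.31% and 8.87% of all genes kept. The genes named here and below as not overlapping are from these. None of the members had such a separation with GOx-DOX-LGP lower.

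Of 12 genes of glutathione supply and turnover, 11 were kept (median −1.07), 6 were lower at an unadjusted p under 0.05 and 0 were higher. Cth, which makes cysteine from cystathionine, was at 2.72, 321 and 536 CPM in the controls and at 6.23, 3.23 and 4.47 CPM in the treated tumors, a log2 fold change of −5.94 (SE 1.68, adjusted p 0.247). Slc7a11, the cystine importer, had the opposite order, at 12.3, 1.61 and 0.538 CPM in the controls and 9.24, 8.96 and 8.74 CPM in the treated tumors (log2 fold change 0.87, SE 1.01, adjusted p 0.628). Control 5 was the highest of the 6 libraries for Slc7a11 and the lowest for Cth.

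Among 7 other glutathione transferases and relatives (median 0.46), 1 was lower and 2 were higher at an unadjusted p under 0.05. Mgst1, the microsomal form of hepatocytes, was at 61.1, 3346 and 5609 CPM in the controls and at 125, 109 and 96.5 CPM in the treated tumors (log2 fold change −4.77, SE 1.47, adjusted p 0.247). Mgst3 was at 25.2, 20.4 and 19.4 CPM and at 32.8, 31.4 and 39.3 CPM, higher in every treated tumor (log2 fold change 0.67, SE 0.21, adjusted p 0.247). Ptges, the prostaglandin E synthase of the same superfamily, was at 4.39, 4.16 and 2.26 CPM and at 7.76, 20.2 and 5.72 CPM, also higher in every treated tumor (log2 fold change 1.63, SE 0.57, adjusted p 0.249).

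Of 12 enzymes of other conjugations, 10 were kept (median −4.43), 8 were lower at an unadjusted p under 0.05 and 0 were higher, with the largest change in Glyat, the glycine transferase (log2 fold change −6.19, SE 1.92, adjusted p 0.247). Of 9 exporters of conjugates and drugs (median 0.26), 4 were lower and 0 were higher at an unadjusted p under 0.05, and 5 had a positive fitted change. Abcc6 had the largest change of them (log2 fold change −5.85, SE 1.91, adjusted p 0.247). Abcc2, the canalicular pump for glucuronides and glutathione conjugates, was at 204, 596 and 1025 CPM in the controls and at 143, 88.2 and 97.4 CPM in the treated tumors, with no overlap (log2 fold change −2.47, SE 0.63, adjusted p 0.247). Abcb1a and Abcb1b, the mouse P-glycoprotein genes that export doxorubicin, were at 81.0 and 108 CPM in control 5. Both were lower in controls 6 and 7 (5.27 to 20.6 CPM) and lay between 28.4 and 74.1 CPM in the treated tumors (adjusted p 0.837 and 0.694). Of the 5 hydrolases that remove glucuronic acid or sulfate, 4 were kept (median 0.04) and 0 passed even the unadjusted threshold, the largest change being −0.44 in Arsa (SE 0.35, adjusted p 0.504).

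Of 16 regulators of these genes, 13 were kept (median −0.61), 6 were lower at an unadjusted p under 0.05 and 0 were higher. Ppara, the fatty acid receptor, had the largest change among them (log2 fold change −5.75, SE 1.83, adjusted p 0.247). The drug receptor PXR (Nr1i2) was at 0.395, 38.9 and 64.4 CPM in the controls and at 0.890, 0.882 and 0.572 CPM in the treated tumors (log2 fold change −5.45, SE 1.59, adjusted p 0.247). Hnf4a was at 4.52, 717 and 1114 CPM and at 19.2, 6.57 and 11.3 CPM (log2 fold change −5.63, SE 1.75, adjusted p 0.247). Nr1i3 (CAR), removed by the filter, had at most 0.346 CPM in control 5 and the treated tumors and was at 22.1 and 33.4 CPM in controls 6 and 7. NRF2 (Nfe2l2) was at 250, 166 and 174 CPM and at 233, 197 and 215 CPM (log2 fold change 0.13, SE 0.27, adjusted p 0.782), and Ahr was at 59.3, 78.4 and 65.4 CPM and at 53.1, 111 and 40.3 CPM (log2 fold change 0.01, SE 0.41, adjusted p 0.989). Of the regulators named here, Ppara, Nr1i2, Hnf4a and Nr1i3 were highest in controls 6 and 7, while Nfe2l2 and Ahr varied by less than 3-fold over all 6 libraries. Of the 13 kept, 10 had a negative and 3 a positive fitted change.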

How the data were processed

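RNA-seq of 3 untreated and 3 GOx-DOX-LGP-treated HCA-1 tumors was analysed from raw counts per gene, which the authors deposited without normalization or pooling. A second deposited table holds signal values, in which each library was scaled by its own size factor, and was used only for gene symbols and to check the counts. The sources differ on how the counts were made. The paper's methods name TopHat and HTSeq, while the submitters' processing notes list Trimmomatic 0.38, HISAT2 2.1.0 and featureCounts 2.0.0. The genome build, annotation release and use of strand are not given in the sources used here. Genes of shared sequence, overlapping exons or opposite strands can therefore gain or lose reads.

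Counts were analysed in R 4.3.3 with edgeR 4.0.16 (filterByExpr defaults, TMM, quasi-likelihood test over all 6 libraries, no covariates, Benjamini-Hochberg adjustment over all 15374 genes kept, threshold 0.05). Standard errors are the fold change divided by the root of F. The steps were tested on simulated data. Library totals of 15529940 to 18401178 set the depth, and 3 counts correspond to between 0.132 and 0.323 CPM. Positions and exon lengths are from GENCODE M21 (GRCm38). Alternatives were DESeq2 1.42.0, limma 3.58.1 (voom with sample quality weights), other scalings and filters, the hepatocyte markers as a covariate, and leaving out each library. Figures were drawn with matplotlib 3.10.9.

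Genes named with all their values are the highest per kilobase of each class and, in each family, the 3 most negative and up to 3 positive fold changes among those kept, with Alb, Ttr, Apoa1 and the largest change of each pathway list. Other genes named, among them Ugt1a6a, Ugt1a6b, Gsta1, Gsta4, Gstm5, the members removed by the filter, and pathway genes beyond the largest change of their list, were chosen after their values were seen, for their role or their departure from their class. The members and all lists were chosen with earlier results of these data known. A regulator in these lists and its motif are not reported here.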

Additional observations from a re-analysis of the deposited data

How the results depend on the processing

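The number of members lower at an adjusted p under 0.05 was 0 of 38 in the main fit. It moved to 29 of 38 at an unadjusted p (14.6% of all genes kept) and to 37 of 46 with DESeq2 (9.87% of 16471 genes). Limma voom gave 31 of 38, in a fit that called 30.9% of all genes lower and 29.2% higher. With 1 library left out the number lay between 0 and 40, with 40 of 46 only without control 5 (25.5% of 16249 genes). The members added without control 5 passed the filter only through controls 6 and 7, so their calls followed from the filter. The number higher moved from 0 to 1, 0 and 3 in these settings, against 2.87%, 0.686% and 29.2% of all genes. It lay between 0 and 1 without 1 library, with 1 only without control 5 (22.2% of all genes). Members without overlap numbered 0 to 41 lower and 1 to 3 higher when 1 library was left out (41 and 3 without control 5, against 35.3% and 36.8% of all genes), and 2 were higher with scaling by library totals or upper quartile. Medians without 1 library lay between −6.77 and −5.23 (UGT), −6.65 and −4.80 (SULT) and −4.04 and −2.62 (GST). The lowest value for each family was that without control 5, where 16 UGT, 9 SULT and 21 GST genes were kept. The UGT and SULT genes added there passed the filter only through controls 6 and 7. With the hepatocyte markers as a covariate the family medians were 0.045, −0.50 and −0.19. In that fit Ugt1a1 (0.55), Ugt2b5 (0.24), Ugt3a2 (0.045) and Gstm3 (1.46) reversed, 4 of the 9 members whose sign turned. Ugt1a7c reversed with limma voom (−0.12) and without GOx-DOX-LGP 2 (−0.18), its range without 1 library reaching 1.28. The cause was not tested. Of the 22 members named by the rule given under processing, 17 passed the threshold with DESeq2, 20 with limma voom and 18 without control 5. Over all genes the shares lower and higher were 9.87% and 0.686% (DESeq2), 30.9% and 29.2% (limma voom) and 25.5% and 22.2% (without control 5). The rule picked members partly by their fold changes in these same data, so these counts are no separate support. Scaling moved the median of all genes from 0.02 to 0.51 (library totals) and 0.19 (upper quartile), and with library totals 31 members had a negative and 7 a positive fitted change, with 0 called. DESeq2 over its unfiltered genes gave a median of 0.14, and its size factors in edgeR gave 0.014. No paired analysis was possible because the groups share only the number 5. Counts under about 25, as for Sult2b1 and Sult6b1, limit what could be seen at this depth.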
